A study of Polistes metricus with 16 samples.

Results

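Brain transcripts of 4 Polistes metricus workers that had lived on nests of another species, Polistes fuscatus (allospecific nests), were compared with those of 4 foundresses, all 8 wasps having been trained to P. fuscatus faces. These are 8 of the 16 libraries of the study, chosen by their labels. Each library came from the brain of 1 adult female. The workers are MW30, MW32, MW41 and MW47, reared as adults for at least a week on a nest that was not their birth nest and collected in July. The foundresses are M30, M67, M79 and M91, collected in June per their sample labels, although the treatment protocol speaks of early spring, and no nest swap is given for them. All 8 were trained in 40 sequential T-maze trials with negative reinforcement and freeze-killed 30 minutes after the last. Caste, month of collection and the foreign nest therefore go together and cannot be told apart in these wasps. The sources used here give neither adult age in days nor the birth nest of single wasps.

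In Polistes paper wasps, foundresses are mated females that survive the winter and start a nest in spring, and workers are their daughters of the same summer, which forage and tend brood. The castes look alike and a worker can still become reproductive, so caste shows mainly in physiology and behaviour. P. fuscatus wasps tell nestmates apart by their variable faces, an ability that P. metricus lacks or has to a lesser degree. The comparison sets brains of both castes side by side after the same training to faces; whether each wasp learned was not analysed here.

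Values are counts per transcript identifier of an assembled transcript set. The deposited table does not pair identifiers with gene names, so no role can be given for any transcript, and brain cell markers could not be checked. In RNA of whole brains, fewer cells of a type and less RNA per cell cannot be told apart. Neighbouring identifiers can be pieces or variants of the same gene, and reads may be shared between them. Of 127674 identifiers, 52818 had at least 10 counts in at least 4 of the 8 wasps and were tested. The 8 libraries held 16188484 to 21822598 counts, of which 99.3% to 99.5% fell on tested transcripts. Each library is 1 wasp, and the 12 pairs of wasps within groups differed by 7.94 to 27.1 times counting noise (chi-square per degree of freedom). Levels are CPM, a transcript's count scaled to a fixed library total with TMM factors. Called transcripts are those with an adjusted p under 0.05.

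Fewer identifiers were detected in every worker than in any foundress. At one common depth of 14949149 counts, identifiers with any count numbered 81368 in MW30, 83770 in MW32, 82174 in MW41 and 83358 in MW47. They numbered 87250 in M30, 87600 in M67, 88124 in M79 and 88655 in M91. Every worker thus lay below every foundress, with means of 82668 ± 1099 in workers and 87907 ± 614 in foundresses (SD, n = 4 each). The exact two-sided permutation p was 0.0286, the smallest that 4 against 4 wasps allow, and 0.0857 after adjustment over 6 such values. Without thinning, workers had 85156 ± 1452 identifiers with a count and foundresses 92656 ± 1143 (SD, n = 4 each).

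The gap lay in the rarest class. Identifiers with 1 to 9 counts at the common depth numbered 31711 to 33724 in workers and 37605 to 38751 in foundresses, with no overlap (exact permutation p = 0.0286, adjusted p = 0.0857 over 3 classes). Those with 10 to 99 counts numbered 25281 ± 536 and 25712 ± 386, and those with 100 or more 24633 ± 514 and 24067 ± 74.4 (workers and foundresses, SD, n = 4 each), where the groups overlapped (exact permutation p = 0.229 and 0.143). These classes were chosen after the totals had been seen. Of 120404 identifiers with a count in any of the 8 wasps, as deposited and with depth not matched, 31778 were found in more foundresses than workers and 12181 in more workers than foundresses.

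The 8 remaining wasps of the study, 4 workers from nests of their own species and 4 foundresses trained to simple patterns, share no library with this comparison. Their identifiers with 1 to 9 counts at the same depth numbered 32249 to 37460 in workers and 37852 to 41710 in foundresses, again with no overlap (exact permutation p = 0.0286, not adjusted). In both sets of 8, every foundress thus had more of these rare identifiers than every worker. Besides the nests, the second set differs from the first in that only its workers were trained to faces. Its foundresses were collected in May, and MW21, its worker with 37460, in June.

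**Figure D1:**
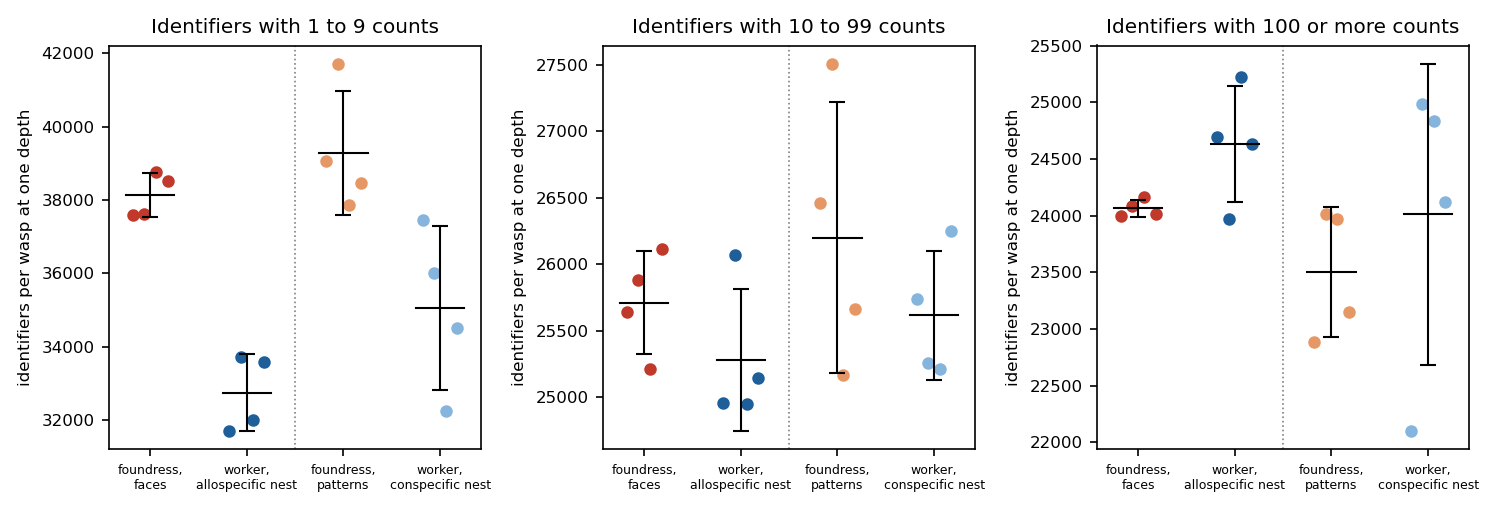
Number of identifiers per wasp with 1 to 9, 10 to 99 and 100 or more counts at one depth of 14949149 counts; points are wasps, bars the mean ± SD of 4, the dotted line separates the main comparison (left) from the 8 other wasps, and the vertical axes do not start at 0. In the class of 1 to 9 counts, the 4 allospecific-nest workers (31711 to 33724) lie below all 4 face-trained foundresses (37605 to 38751).

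Transcripts present in all wasps of one group and at 0 in the other were few and low. A count in all 4 foundresses and 0 in all 4 workers was found for 257 identifiers, and the reverse for 25. At the common depth these numbers were 156 and 44. In the 257, the counts of the 4 foundresses summed to a median of 6 and the highest count in any of them was 50. Since a count of 0 allows up to 3 counts per library, most of these differences were not detectable at this depth. No identifier (0) had 10 or more counts in all wasps of one group and 0 in all of the other. Of the 257, 58 were also at 0 in all 4 conspecific-nest workers, and 3 repeated the whole pattern in the 8 other wasps.

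Among the tested transcripts, 61 were called by edgeR's quasi-likelihood test, 14 higher and 47 lower in allospecific-nest workers. That is 0.115% of those tested, or 0.0265% higher and 0.0890% lower, and the lowest adjusted p was 0.00397. An unadjusted p under 0.05 was found for 5693 transcripts (10.8%), against 2641 if p-values were uniform. Of these, 2476 were higher and 3217 lower in workers. Over all tested transcripts 25345 were higher and 27473 lower, with a median log2 difference of -0.01 and a median size of 0.18 (median SE 0.21). The lower calls outnumbered the higher ones with TMM scaling, with DESeq2 size factors (21 higher, 48 lower) and without 306 transcripts that co-vary with the most abundant one (16 higher, 50 lower). Each of these settings kept the count filter, which some rare lower calls could pass only through the foundresses. The direction of those calls was fixed, so the excess rests partly on them. DESeq2's own test called 561 transcripts, limma-voom 23 and edgeR with all 16 wasps in 1 fit 137.

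The 14 higher transcripts changed by similar amounts and the 47 lower ones did not. Log2 differences ran from 0.93 to 1.36 among the former, with a median of 1.16 (2.23-fold). Among the latter they ran from -3.64 to -0.72, with a median of -1.51 (0.350 of the foundress level). At least a 2-fold change was seen in 13 of the 14 and in 32 of the 47. A 4-fold change was seen in 0 of the 14 and 17 of the 47. Many of the 17 had worker means of only 0.0560 to 0.271 CPM, too low to pass the count filter in any worker. They could pass it only through the foundresses, so their direction was fixed. The contrast in 4-fold changes rests partly on them. In the group where it was higher, a called transcript stood at 5.51 to 295 CPM among the 14 and at 0.630 to 650 CPM among the 47. Under 5 CPM were 0 of the 14 and 16 of the 47, and 23671 of all 52818 tested.

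Large differences alone did not make a call. A 4-fold difference was fitted for 117 transcripts, 28 higher and 89 lower in workers, and 17 of these were called. In 50 of the 117 the groups overlapped. The most extreme fitted values, 5.62 and -4.59 on the log2 scale, belonged to transcripts that were not called. Groups did not overlap in any of the 61 called transcripts, and in 3612 of all tested (6.84%), with workers higher in 2.89% and lower in 3.95%.

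**Figure D2:**
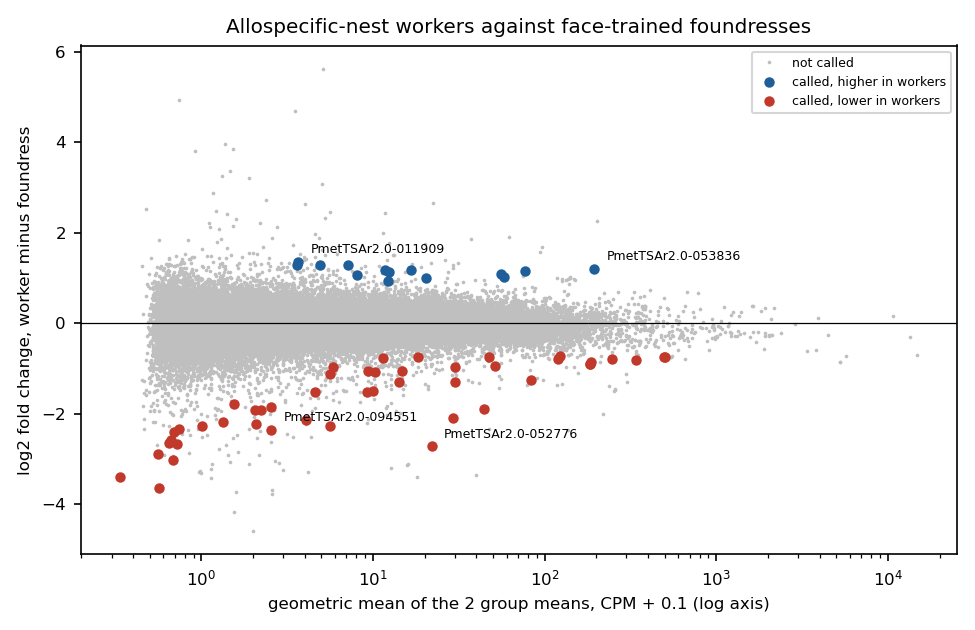
Log2 fold change (worker minus foundress) of each of the 52818 tested transcripts against its level (geometric mean of both group means in CPM + 0.1, log axis); grey points were not called, blue points are the 14 called higher and red points the 47 called lower in allospecific-nest workers. The blue points lie in a band from 0.93 to 1.36, whereas the red ones spread from -0.72 to -3.64 and reach furthest at low levels; some grey points are more extreme than any called one.

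The higher transcript with the lowest p was PmetTSAr2.0-053836. Its level was 346 CPM in MW30, 268 in MW32, 287 in MW41 and 278 in MW47, and 111 CPM in M30, 138 in M67, 126 in M79 and 136 in M91. Workers lay above foundresses without overlap, and MW30 was the highest. Means were 295 ± 35.3 and 128 ± 12.6 CPM (SD, n = 4 each), from 2222 to 7153 counts per wasp. The log2 difference was 1.21 ± 0.13 (SE), with an edgeR adjusted p of 0.00962, and it stayed called under every alternative tried (log2 1.12 to 1.25).

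PmetTSAr2.0-053836 did not stand alone. A further 3 called transcripts lay within 6 identifiers of it, all higher in workers by 1.02 to 1.15 on the log2 scale. Their spread between wasps of a group correlated with that of PmetTSAr2.0-053836 at 0.54 to 0.81 over the 8 wasps. These 4 lay in a span of 10 tested identifiers, of which 2 were lower in workers. Whether neighbours share a gene or reads is not known here, so their separate values are uncertain.

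PmetTSAr2.0-011909 had the largest fold among the higher transcripts. Its level was 5.67 CPM in MW30, 5.29 in MW32, 5.84 in MW41 and 6.06 in MW47, against 1.53 in M30, 2.79 in M67, 2.48 in M79 and 2.08 in M91. The workers differed little among themselves, at 5.71 ± 0.325 CPM against 2.22 ± 0.547 CPM in foundresses (SD, n = 4 each). The log2 difference was 1.36 ± 0.21 (SE) with an edgeR adjusted p of 0.0357, resting on 32 to 120 counts per wasp. By limma-voom its adjusted p was 0.0531. By edgeR without M30 it was 0.0614, without M67 0.0596, without M91 0.123, without MW30 0.0757, without MW32 0.0842, without MW41 0.132 and without MW47 0.0745.

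The lowest p of all belonged to PmetTSAr2.0-052776, which fell to 0.151 of the foundress level. It stood at 11.6 CPM in MW30, 9.50 in MW32, 6.76 in MW41 and 6.06 in MW47, and at 48.6 CPM in M30, 44.4 in M67, 60.8 in M79 and 70.7 in M91. The lowest foundress was far above the highest worker. Means were 8.49 ± 2.56 and 56.1 ± 11.95 CPM (SD, n = 4 each), and the log2 difference was -2.72 ± 0.22 (SE) with an edgeR adjusted p of 0.00397. In a fit of all 16 wasps the difference was -2.70 and the adjusted p 0.256.

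In the 8 other wasps PmetTSAr2.0-052776 varied widely. It stood at 72.6 CPM in M1, 22.8 in M15, 12.01 in M4 and 1.47 in M5, all foundresses trained to patterns. In conspecific-nest workers it stood at 68.3 CPM in MW21, 8.56 in MW25, 14.9 in MW40 and 4.91 in MW42. The worker MW21 was thus at the level of face-trained foundresses, and the foundress M5 below every allospecific-nest worker. Between these groups the log2 difference was -0.17 ± 1.25 (SE), with an edgeR adjusted p of 0.977.

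PmetTSAr2.0-094551 had the largest fold among the lower transcripts with at least 5 CPM and groups apart, after PmetTSAr2.0-052776. Its level was 1.74 CPM in MW30, 0.722 in MW32, 0.925 in MW41 and 0.859 in MW47, and 3.10 CPM in M30, 4.91 in M67, 7.05 in M79 and 7.04 in M91. Means were 1.06 ± 0.462 and 5.53 ± 1.90 CPM (SD, n = 4 each). On the log2 scale workers were lower by -2.35 ± 0.34 (SE, edgeR adjusted p = 0.0270). It was the 1 called transcript of 61 with the opposite direction in the 8 other wasps, at 0.37 ± 0.62 (SE) with an edgeR adjusted p of 0.883. Its call was lost by limma-voom (adjusted p 0.0756), with all 16 wasps in 1 fit (0.0784) and, by edgeR, without M67 (0.0625), M91 (0.0889), MW32 (0.0919), MW41 (0.141) or MW47 (0.0742).

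**Figure D3:**
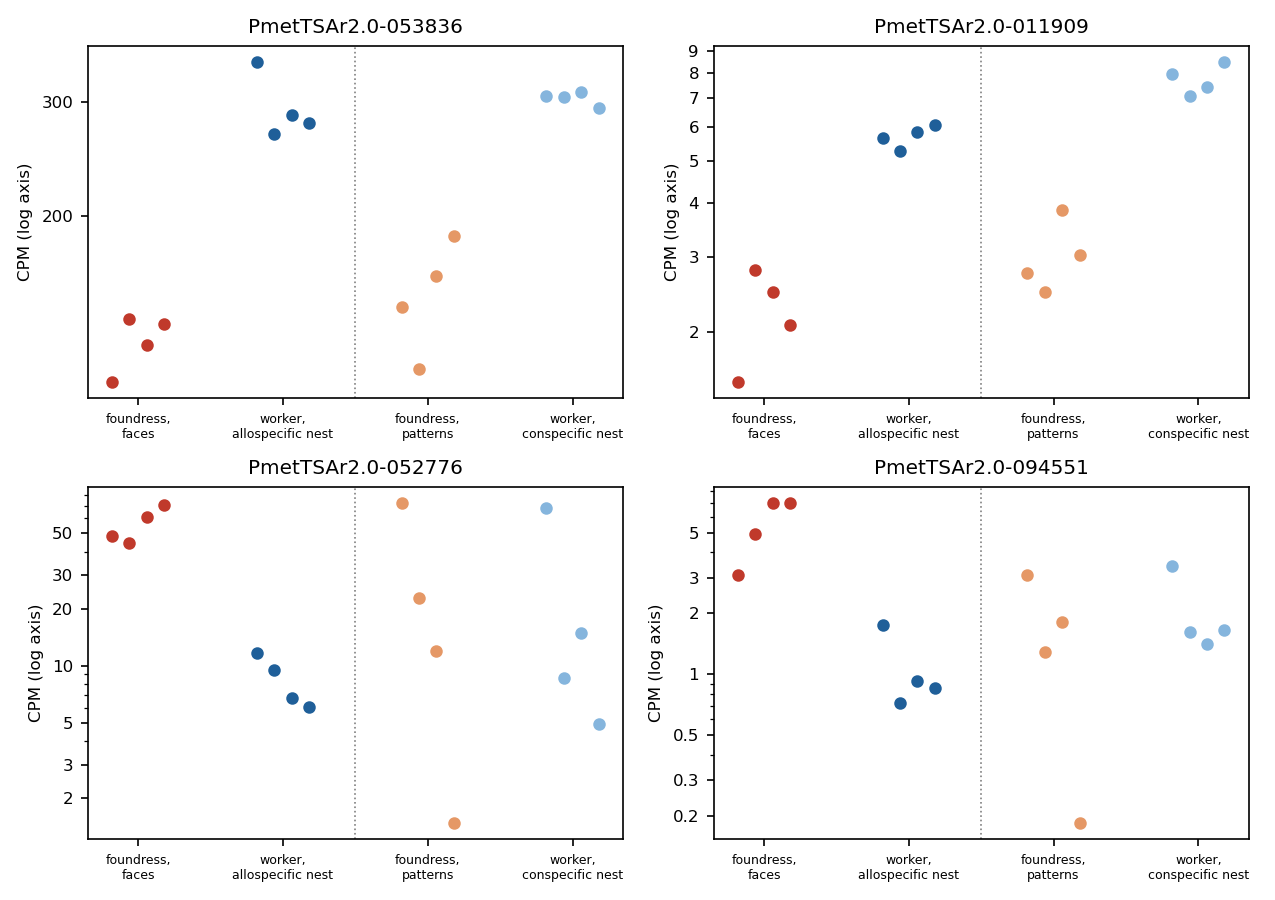
Level in CPM (log axes) of the 4 named transcripts in each of the 16 wasps, 1 point per wasp; the dotted line separates the main comparison (left) from the 8 other wasps. In the upper panels both worker groups lie above both foundress groups, whereas in the lower panels the other wasps are scattered, with MW21 (68.3 and 3.43 CPM) the highest of the conspecific-nest workers.

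Called transcripts often lay close together in identifier number. Joined wherever they were at most 10 identifiers apart, the 61 fell into 42 neighbourhoods, 10 higher and 32 lower in workers and none mixed. Of these, 5 held 3 or more called transcripts, 19 in all. Joined only where they were also within 3 identifiers and their deviations from group means correlated above 0.7, they formed 53 runs, 13 higher and 40 lower.

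The neighbourhood with the most calls held 5 lower transcripts in 12 consecutive identifiers. They were rare, at 0.630 to 1.55 CPM in foundresses and 0.0560 to 0.225 CPM in workers, with log2 differences of -3.39 to -2.58. At such worker levels a transcript could pass the filter of 10 counts in 4 wasps only through the foundresses, so a lower value in workers was fixed by the filter. In the 8 other wasps they were also lower in workers, by -2.27 to -1.15, and 4 of the 5 had an unadjusted p under 0.05 by edgeR.

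A second neighbourhood of 4 lower transcripts was abundant and moved less. Its members stood at 249 to 455 CPM in foundresses and 134 to 259 CPM in workers, with log2 differences of -0.91 to -0.82. They varied almost as 1 (correlations of 0.871 to 0.978 within groups). In the 8 other wasps their differences were -0.36 to -0.29, and 0 of the 4 had an unadjusted p under 0.05.

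The called transcripts with the highest levels were a pair 3 identifiers in span, both lower in workers. One stood at 373 CPM in MW30, 382 in MW32, 384 in MW41 and 396 in MW47, against 735 in M30, 631 in M67, 575 in M79 and 645 in M91. Workers were nearly equal and foundresses spread more widely, with no overlap. Its log2 difference was -0.75 ± 0.12 (SE), with an edgeR adjusted p of 0.0420. The other foundresses, trained to patterns, stood at 391 to 481 CPM and the conspecific-nest workers at 372 to 429 CPM, so that these groups overlapped.

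The largest called fold belonged to a rare transcript. It stood at 0.0484 CPM in MW30, 0.180 in MW32, 0.0578 in MW41 and 0.152 in MW47, and at 1.24 CPM in M30, 0.674 in M67, 1.89 in M79 and 1.90 in M91. With 1 to 38 counts per wasp the fold is poorly measured, at -3.64 ± 0.51 (SE) on the log2 scale and an edgeR adjusted p of 0.0247. At these worker levels the transcript could pass the count filter only through the foundresses, so its direction was fixed. In the 8 other wasps the log2 difference was -0.25, with an edgeR adjusted p of 0.940.

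In the 8 other wasps, the workers lived on nests of their own species and the foundresses were trained to patterns. There, 60 of the 61 called transcripts had the same direction, 14 of 14 higher and 46 of 47 lower (98.4%). Leaving out 1 of these 8 wasps gave 95.1% to 100%. Over all tested transcripts the direction was the same in 69.4%. The median log2 difference of the 14 was 1.16 in the main comparison and 0.98 in the other wasps. For the 47 it was -1.51 and -0.63. In 57 of the 61 the difference was smaller in the other wasps, in a list that was chosen for large differences in the first 8.

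Conspecific-nest workers and pattern-trained foundresses differed in 60 transcripts in their own edgeR fit (0.114% of those tested), 38 higher and 22 lower in workers. Without M1 the count was 30 (21 higher, 9 lower), without M15 46 (24 and 22), without M4 58 (39 and 19) and without M5 40 (27 and 13). Without MW21 it was 83 (39 and 44), without MW25 33 (27 and 6), without MW40 30 (24 and 6) and without MW42 61 (30 and 31). The excess of higher calls was thus lost without MW21 or without MW42. An unadjusted p under 0.05 was found there for 10.7% of all tested, and groups did not overlap in 6.49%. Of the 61, 10 were among these 60, which is 16.4% of one list and 16.7% of the other. The 10 comprised 9 of the 14 higher and 1 of the 47 lower transcripts. At an unadjusted p under 0.05 in the same direction, the counts were 13 of 14 and 24 of 47. Of the 9 higher transcripts called in both sets, 4 lay in a single neighbourhood spanning 10 identifiers, and these 4 are also among the 13. The 24 lower ones include neighbours too. Neighbours can be pieces of the same gene, so they may not be separate agreements.

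The 9 higher transcripts called in both sets of wasps had log2 differences of 1.02 to 1.36 in the main comparison and 0.89 to 1.44 in the other. The 1 lower transcript called in both stood at 5.91 CPM in MW30, 5.83 in MW32, 5.32 in MW41 and 4.65 in MW47, against 16.4 in M30, 18.9 in M67, 16.4 in M79 and 10.2 in M91. Its log2 difference was -1.51 ± 0.19 (SE, edgeR adjusted p = 0.0187) and in the other wasps -1.30 (edgeR adjusted p = 0.0175). The 1 higher transcript without an unadjusted p under 0.05 in the other wasps stood at 4.16 to 6.57 CPM in allospecific-nest workers and 1.84 to 2.68 CPM in face-trained foundresses. Conspecific-nest workers had 2.58 to 7.62 CPM and pattern-trained foundresses 2.25 to 5.84 CPM of it, overlapping throughout.

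All 8 workers lay beyond all 8 foundresses in 25 of the 61, which were 11 of the 14 higher and 14 of the 47 lower transcripts. Over all tested transcripts this was so in 0.772%, and the choice of the 61 fixes the order of 8 of these 16 wasps. Of the 11 higher transcripts, 4 lay in a single neighbourhood spanning 10 identifiers, and the 14 lower ones include neighbours too. These may be pieces of the same gene and are then not separate cases.

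**Figure D4:**
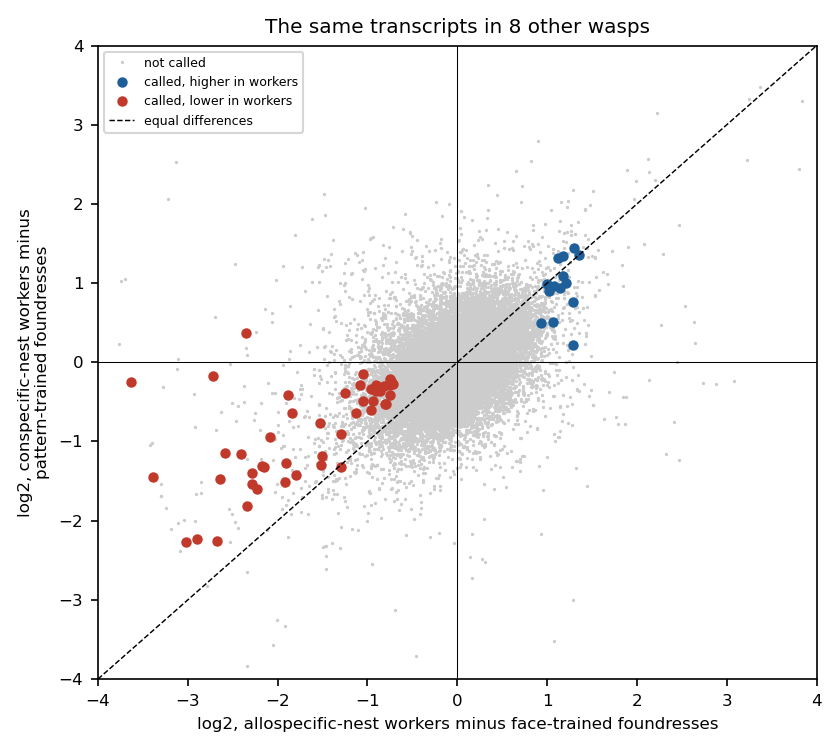
Log2 difference of each transcript between conspecific-nest workers and pattern-trained foundresses (vertical axis) against that between allospecific-nest workers and face-trained foundresses (horizontal axis), with no wasp in common; grey points were not called (those beyond 4 on either axis are not drawn), blue are the 14 called higher and red the 47 called lower on the horizontal axis, and the dashed line marks equal differences. Most blue points lie near the line, but some lie well below it, the lowest at 0.21 on the vertical axis. Most red points lie between the line and 0, and 1 red point lies above 0.

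The higher and the lower calls differed in how much the other wasps varied. Among the 14, the median within-group SD of log2 CPM was 0.22 in the main comparison and 0.23 in the other wasps. Among the 47 it was 0.27 and 0.47, and over all tested transcripts 0.28 and 0.26. The SD was over 2 times as large in the other wasps for 26 of the 47 (55.3%), 1 of the 14 (7.14%) and 4.53% of all tested. A low SD in the first 8 wasps favours a call, so the values of the main comparison were part of the choice.

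Each wasp was also placed on a scale from 0, the mean of face-trained foundresses, to 1, the mean of allospecific-nest workers, by its median over the called transcripts on log2(CPM + 0.1). For the 14 higher transcripts conspecific-nest workers lay at 1.13 ± 0.0232 and pattern-trained foundresses at 0.277 ± 0.181 (SD, n = 4 each). For the 47 lower ones these groups lay at 0.839 ± 0.183 and 0.304 ± 0.133 (SD, n = 4 each). The wasp MW21 was the lowest of the conspecific-nest workers for the 47, at 0.579, where the other 3 lay at 0.846 to 0.979. It was nearer to face-trained foundresses than to allospecific-nest workers in 18 of the 47, against 2 to 6 for the other 3, and in 0 of the 14. Crossing was not confined to MW21. Pattern-trained foundresses were nearer to allospecific-nest workers in 9 (M1), 11 (M15), 22 (M4) and 17 (M5) of the 47. Of the 14, this was so in 2 (M1), 2 (M15), 3 (M4) and 6 (M5). MW21 is the 1 worker of the study collected in June. It also had the largest share of counts on the 306 transcripts that co-vary with the most abundant one, 18.4%. The share was 2.26% to 10.2% in allospecific-nest workers, 6.49% to 9.54% in face-trained foundresses and 8.85% to 16.3% in pattern-trained foundresses. The part of month and of this share in the position of MW21 was not tested.

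**Figure D5:**
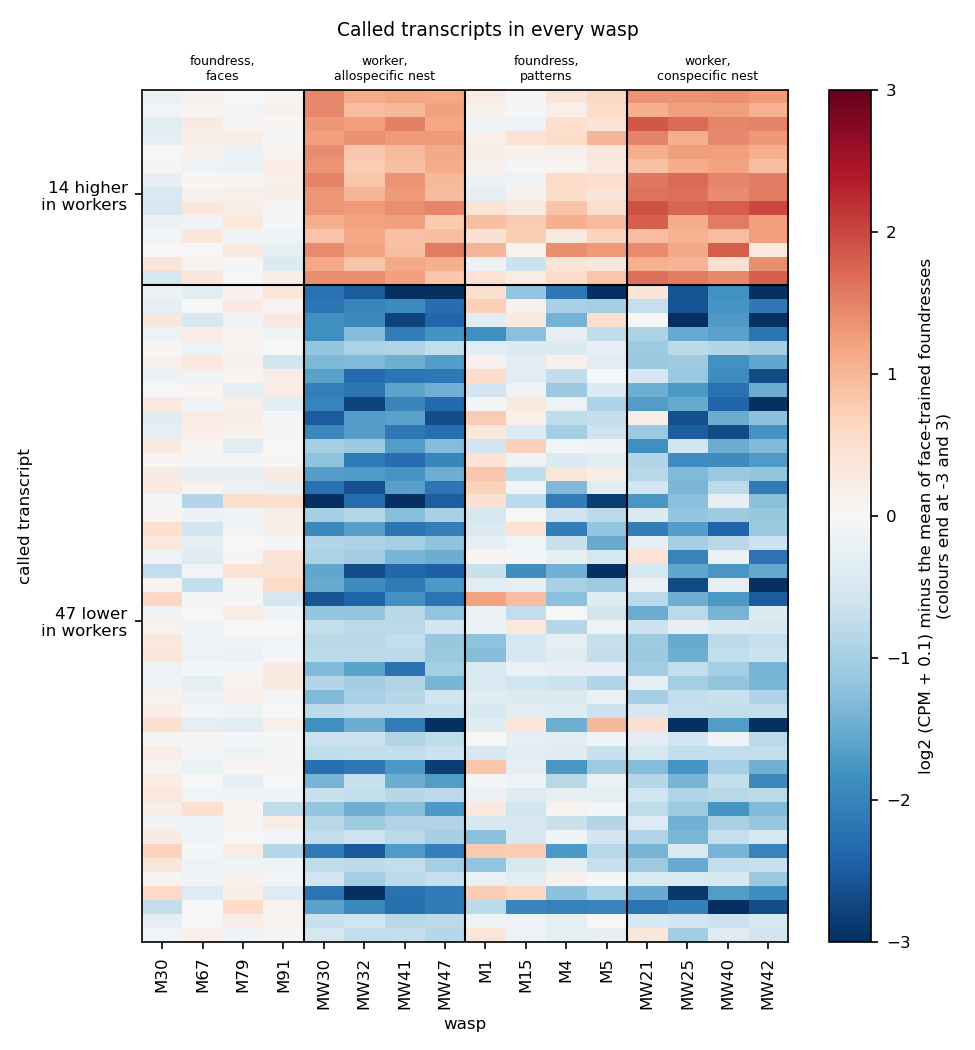
Log2(CPM + 0.1) of the 61 called transcripts (rows, by direction and then by p) in all 16 wasps (columns, by group), as the difference from the mean of the 4 face-trained foundresses; colours end at -3 and 3. The 14 higher transcripts are raised in most of the 8 workers alike, whereas the 47 lower ones are patchy in the 8 wasps on the right, with MW21 often near the foundresses.

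The worker groups, which differ in the species of the host nest, had no called transcript between them. Allospecific-nest workers against conspecific-nest workers, tested over all 16 wasps, gave 0 calls by edgeR (0% of those tested, with 1183 at an unadjusted p under 0.05), and 0 by DESeq2 and by limma-voom. The 61 were chosen on the values of these same allospecific-nest workers, which favours larger differences here. Among the 61, 8 had an unadjusted p under 0.05, and the median size of the log2 difference between the worker groups was 0.25, against 0.12 over all tested. For PmetTSAr2.0-053836 it was -0.11 ± 0.13 (SE) and for PmetTSAr2.0-011909 it was -0.50 ± 0.17 (SE), each with an edgeR adjusted p of 1.

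The difference between the 2 worker-foundress differences was tested in the same fit and gave 0 calls (0%), with 1068 transcripts at an unadjusted p under 0.05, 19 of them among the 61. The 61 were chosen for large differences in 1 of the 2 sets of wasps, which favours small p-values here. DESeq2 called 1 transcript, not among the 61, and limma-voom called 0. For PmetTSAr2.0-052776 the difference of differences was -2.54 ± 1.31 (SE) and for PmetTSAr2.0-094551 it was -2.71 ± 0.75 (SE), each with an edgeR adjusted p of 1. A call in one set of wasps and not in the other is thus not shown to be a difference between the sets.

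The count of 61 changed when any wasp was left out. The direction of all 61 stayed the same each time, but this is no test. Their groups do not overlap, so leaving out 1 wasp was bound to keep it. Without 1 wasp, the number of calls was 25 (M30 left out), 19 (M67), 91 (M79), 7 (M91), 30 (MW30), 8 (MW32), 5 (MW41) or 12 (MW47). Without MW41, 5 of the 61 remained called. Whether fewer calls came from the smaller group or from the wasp left out was not tested. The biological coefficient of variation between wasps was 21.8% among these workers and 22.3% among these foundresses. Pearson correlations of log2 CPM were 0.941 to 0.976 within groups and 0.943 to 0.966 between them, across transcripts, which are not independent replicates. The range between groups lay within the range inside them.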

How the data were processed

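Brain RNA of 16 wasps was sequenced, with 1 library per wasp. Per the labels' protocols, 1 µg of total RNA from each brain went into an Illumina TruSeq library. Trimmomatic 0.32, Bowtie2 and eXpress are named in the submitters' processing notes. How the transcript set was built, strand handled and shared reads assigned is not stated there. The counts, deposited by the authors in a single table, are whole numbers without normalization and may be rounded estimates.

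Columns were joined to groups by the wasp number in the titles. In the 8 wasps, transcripts with 10 or more counts in at least 4 were scaled by TMM (factors 0.951 to 1.07) and tested by edgeR 4.0.16 in R 4.3.3 with the robust quasi-likelihood F test, with 6 residual degrees of freedom. P-values were adjusted by Benjamini-Hochberg over all 52818 transcripts. The SE is the log2 fold change divided by the square root of F. The 8 other wasps were fitted alike and scaled apart, so levels are compared across the sets only roughly. Contrasts between worker groups and between differences came from 1 fit of all 16. Single values per wasp were tested by exact permutation. Numbers of identifiers at one depth, the lowest total of the 16, are those expected under binomial thinning. The 156 and 44 identifiers at 0 in one group came from a single random thinning to that depth. The floor of 3 counts covers counting error only, whereas each SE and SD includes the spread between wasps. The statistics were tested on simulated data.

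DESeq2 1.42.0 and limma-voom (limma 3.58.1) served as alternatives. Transcripts are named by rule: per direction the lowest p and the largest fold among calls with groups apart and at least 5 CPM in the higher group. Others are described without identifiers, because the files give no gene names. Gene and marker lists were not used for the same reason. The comparison, rules and lists were chosen with earlier results of these data known. The test of the difference of differences, the count classes, neighbourhoods, positions and spreads were added after seeing the data.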

Additional observations from a re-analysis of the deposited data

Results flagged for a closer look

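In 38 groups of 4 values examined, 2 values stood far from the other 3 of their group, and chance marks about 1 group in 20. Both belong to the conspecific-nest worker MW21, which is no part of the main comparison. Its level of PmetTSAr2.0-052776 was 68.3 CPM, where the other 3 workers from conspecific nests had 4.91 to 14.9 CPM. Its level of PmetTSAr2.0-094551 was 3.43 CPM, where they had 1.41 to 1.65 CPM.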

How the results depend on the processing

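The 61 calls became 561 by DESeq2 (237 higher, 324 lower; 61 shared), 23 by limma-voom (23 shared), 1278 with no low-count filter (505 higher, 773 lower; 61 shared), 137 with all 16 wasps in 1 fit (56 higher, 81 lower; 38 shared) and 156 at an adjusted p under 0.1. The cause of these shifts was not tested. Of the 1278, 1105 passed the main filter. DESeq2 size factors gave 69, filterByExpr 59 and leaving out 306 co-varying transcripts 66. Leaving out 1 wasp gave 5 to 91 calls. All 4 named transcripts kept their direction in each of 16 alternatives, and PmetTSAr2.0-053836 its call. The groups of these 4 do not overlap, so leaving out 1 wasp or moving the threshold was bound to keep the direction. The 60 calls in the 8 other wasps ran from 30 to 83 without 1 wasp. They were 30 without M1, 33 without MW25, 30 without MW40 and 83 without MW21 (39 higher, 44 lower). The shared direction of 98.4% ran from 95.1% to 100% without 1 of those wasps. The gap in identifiers at one depth, -5239, ran from -5607 to -4806 without 1 wasp. The share of the co-varying set differed by -2.30 percentage points, from -3.83 (without MW32, exact permutation p = 0.0286) to -1.19 (without MW41). The difference of differences gave 1 call by DESeq2 in place of 0. No paired analysis was possible because the labels number wasps singly and do not pair foundresses with workers. With 4 wasps a group, a median SE of 0.21 on the log2 scale limits what could be called.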

Other observations

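Transcripts that followed the most abundant identifier from wasp to wasp (306 with a log2 CPM correlation above 0.9 over the 8 wasps, a set chosen on these libraries) held 2.26% of the counts in MW41, 4.02% in MW30, 5.95% in MW47 and 10.2% in MW32. In foundresses they held 6.49% in M30, 6.87% in M79, 8.73% in M67 and 9.54% in M91. Workers spread more widely around a lower mean, 5.61% ± 3.41 against 7.91% ± 1.46 (SD, n = 4 each), and the groups overlapped (exact two-sided permutation p = 0.286). None (0) of the 61 called transcripts belonged to the set. The 100 most abundant transcripts held 16.3% ± 2.30 of the counts in workers and 18.4% ± 1.58 in foundresses (SD, n = 4 each, exact permutation p = 0.229). The difference of -2.08 percentage points was -3.08 without MW32 and -1.22 without MW41.

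Calls were found at all levels. In 4 equal bins of mean level, from rare to abundant, the called share was 0.0909%, 0.0757%, 0.114% and 0.182%. The rarest bin held 0 higher and 12 lower calls, and the most abundant 6 higher and 18 lower. Many of the rare lower calls had too few counts in every worker to pass the count filter there. They could pass it only through the foundresses, so a lower value in workers was fixed for them. The 0 against 12 is therefore no test of direction among rare transcripts.

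Among the 14 higher transcripts, the mean pairwise correlation of the deviations from group means was 0.239 over the 8 wasps and 0.376 over the 8 other wasps. Among the 47 lower transcripts it was 0.0670 and 0.143, and over all tested transcripts 0.00315 and 0.00047. Members of a neighbourhood can share a gene, which raises these values, and all points share the same libraries.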
